A study of Mus musculus with 12 samples.

Results

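The genes described here are 40 transcription factor genes that pattern limb, trunk, skeleton and skin and lie outside the Hox clusters. They were taken by symbol from a table of 24132 mouse genes, and 39 symbols matched directly. Foxf1a was matched through its RefSeq synonym to the row Foxf1 and is called Foxf1 below. Expression was measured in tail tip fibroblasts of neonatal mice, connective tissue cells of the tail, on a strain backcrossed to C57BL6. The 3 genotypes were Hotair wildtype, Hotair heterozygous (1 disrupted copy) and Hotair knockout (2 disrupted copies), with 2 RNA libraries each. The labels do not say whether libraries came from separate animals or cultures, so p-values here cover no more than how far these libraries varied, and that variation may be technical. Hotair is a long noncoding RNA made within the HoxC cluster.

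Patterning transcription factors divide the embryo into regions before tissues form. Homeodomain proteins (Prrx, Msx, Dlx, Alx, Meis, Pitx), T-box proteins (Tbx), paired-box proteins (Pax), zinc finger proteins (Zic, Osr), forkhead proteins (Fox) and basic helix-loop-helix proteins (Twist, Tcf15) each bind DNA through a different domain. Fibroblasts keep part of this positional expression in culture, and it differs between body sites. Many of these genes are regulated by Polycomb complexes in cells that do not use them.

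Levels are RPKM, aligned reads scaled by transcript length and by the size of the library. This scaling does not make libraries fully comparable: the share of calls that were higher changed under other scalings, as given below. Depth is given in read equivalents, aligned bases divided by a read length of 74 bases. It was between 27.9M and 33.2M in wild-type and heterozygous libraries and was 48.1M and 46.0M in knockout, where the group total was 1.64 times the wild-type total. Hotair stood at 0.247 and 0.183 RPKM in wild type, at 0.213 and 0.172 in heterozygous cells and at 0 in both knockout libraries. All 13 fibroblast markers listed were measured, with sums between 5992 and 6371 RPKM per library. The single markers shifted all the same: in knockout 5 of the 13 rose and 7 fell, against 40.6% and 26.6% of all genes tested below. The largest rise of the list was that of Lum (from 2.31 ± 0.00466 to 13.6 ± 0.368 RPKM, SD, n = 2). The largest fall was that of Thy1 (from 190.3 ± 3.75 to 94.8 ± 1.07). Keratinocyte and endothelial marker sums stayed at or below 0.901 and 0.255 RPKM, and Myod1, Myf5 and Myf6 of skeletal muscle were listed at 0 in every library. The heterozygous libraries also differed from the others in sex-linked genes. Xist stood at 4.65 and 4.46 RPKM there and at no more than 0.0479 elsewhere, and the Y-linked Kdm5d stood at 0.0109 and 0.00584 there against 1.17 or more elsewhere. Effects of genotype and of the sex of the cells therefore cannot be told apart in any comparison with heterozygous cells. Wild-type and knockout libraries did not match in Y-linked genes either. Kdm5d, Ddx3y, Uty and Eif2s3y were all higher in knockout, without overlap of libraries. Mean RPKM went from 1.21 to 2.1 for Kdm5d and from 1.74 to 2.87 for Ddx3y. It went from 0.32 to 0.895 for Uty and from 1.92 to 5.26 for Eif2s3y. The part of this shift in the knockout differences below was not tested.

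Of the 40 genes, 22 reached 1 RPKM in at least 2 libraries, which was the filter for testing. Another 15 were above 0 but under the filter, and Tbx5, Alx1 and Tcf15 were listed at 0 in every library. Over the 216M read equivalents of all libraries, 3 of them correspond to 0.0139 RPKM for a transcript of 1 kb, which limits what a value of 0 can show. The highest were Prrx2 (mean of the 6 libraries 63.4 RPKM), Twist2 (19.4), Prrx1 (16.6), Twist1 (16.6) and Osr1 (6.69). Prrx and Twist genes, regulators of embryonic mesenchyme, thus stood above all other members. Of the 22 measured genes, 4 passed the filter only through their highest genotype: Alx4 and Barx1 through heterozygous cells and Meox2 and Osr2 through knockout cells.

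**Figure D1:**
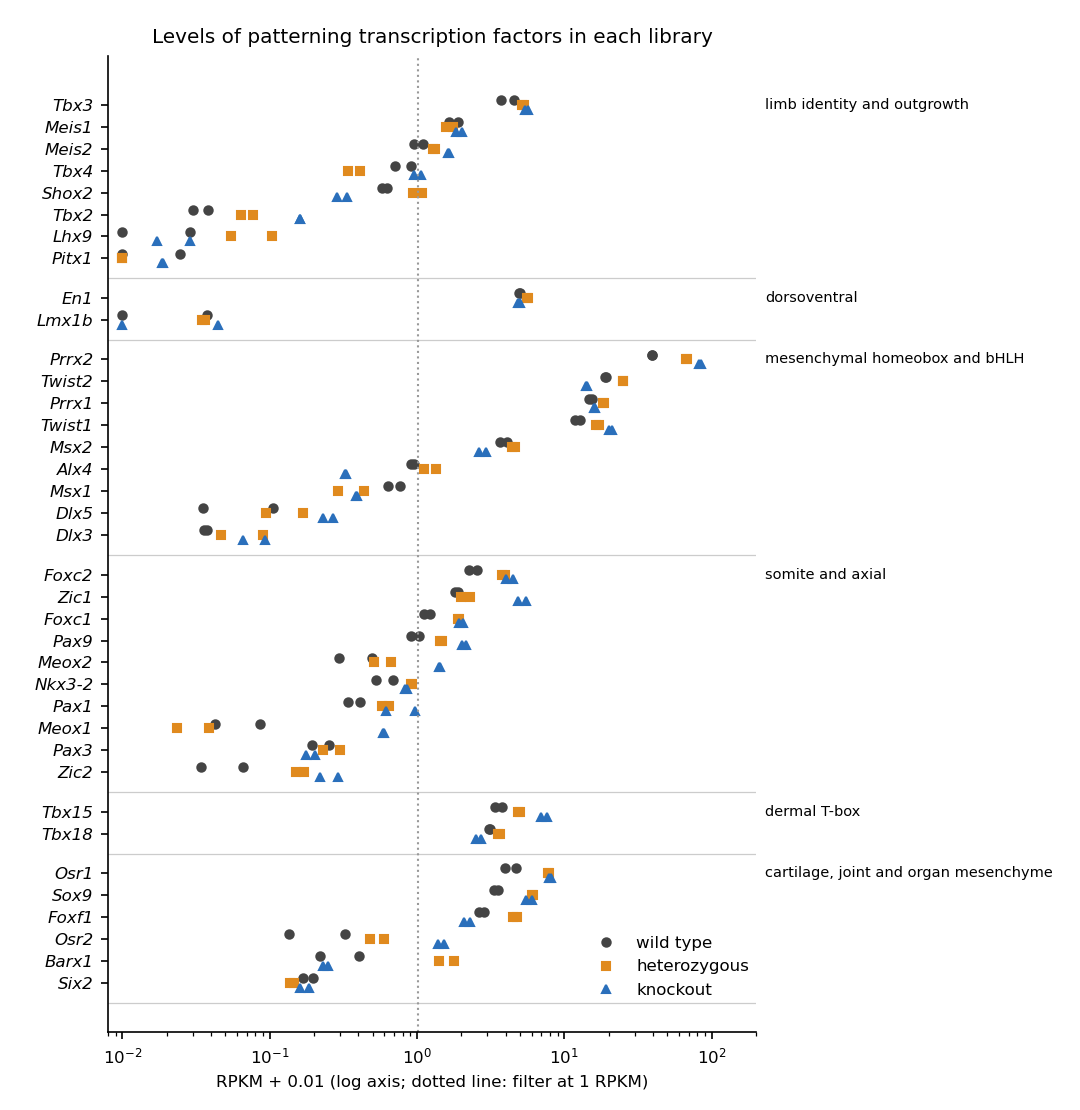
RPKM of each library (points; log axis after adding 0.01) for the 37 genes above 0, grouped by role and ordered by mean level, with the filter at 1 RPKM as a dotted line. Prrx2, Twist2, Prrx1 and Twist1 lie highest, while Tbx2, Lhx9, Pitx1, Lmx1b, Dlx3, Dlx5, Pax3, Zic2 and Six2 stay under 0.3 RPKM in every library.

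The Twist and Prrx pairs are shown with their upstream sequence, because the members of each pair are close relatives whose levels differed in response, and because the Prrx pair differs in CpG content. RefSeq promoters were found for 22 of the 40 genes, and the 250 bases before the start site are given in build GRCm38.p6, whereas the expression table was made on mm9. The windows are chr12:33957421-33957670 (plus strand) for Twist1, chr1:91801211-91801460 (plus) for Twist2, chr1:163313651-163313900 (minus) for Prrx1 and chr2:30845117-30845366 (plus) for Prrx2. Capitals mark CpG dinucleotides, of which there are 18, 23, 4 and 21 in these windows.
Twist1: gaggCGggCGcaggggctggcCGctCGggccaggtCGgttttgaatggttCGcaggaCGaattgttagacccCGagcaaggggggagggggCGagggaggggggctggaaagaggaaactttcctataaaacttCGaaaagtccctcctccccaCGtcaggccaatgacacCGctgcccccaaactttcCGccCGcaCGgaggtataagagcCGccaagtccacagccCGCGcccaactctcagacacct
Twist2: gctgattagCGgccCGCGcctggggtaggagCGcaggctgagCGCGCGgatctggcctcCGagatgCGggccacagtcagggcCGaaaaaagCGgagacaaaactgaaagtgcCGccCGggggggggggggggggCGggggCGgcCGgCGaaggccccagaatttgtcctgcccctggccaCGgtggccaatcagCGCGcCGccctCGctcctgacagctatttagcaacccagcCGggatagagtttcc
Prrx1: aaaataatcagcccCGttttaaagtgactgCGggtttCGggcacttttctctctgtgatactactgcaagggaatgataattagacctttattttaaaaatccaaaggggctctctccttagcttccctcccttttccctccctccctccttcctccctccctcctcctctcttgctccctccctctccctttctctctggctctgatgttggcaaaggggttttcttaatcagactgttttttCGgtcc
Prrx2: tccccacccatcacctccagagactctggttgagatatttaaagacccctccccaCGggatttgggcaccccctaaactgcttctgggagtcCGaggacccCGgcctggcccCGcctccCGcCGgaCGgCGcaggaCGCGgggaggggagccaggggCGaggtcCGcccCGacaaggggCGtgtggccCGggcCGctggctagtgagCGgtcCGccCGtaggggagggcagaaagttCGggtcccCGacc
The ratio of observed to expected CpG was 0.74 for Twist1, 0.79 for Twist2 and 0.69 for Prrx2, against 0.32 for Prrx1. Of the 22 promoters, 16 had a ratio of at least 0.6 (72.7%), against 34% of all 32851 promoter windows and 68.3% of the 10196 windows of genes that passed the filter. GC content had a median of 61.8% in the 22 windows, 52.4% in all windows and 60.4% in windows of genes that passed. The composition of these promoters was thus close to that of other genes measured in these cells. The homeodomain core TAATTA, searched on both strands, occurred in the windows of Prrx1 and Msx2 (2 of 22, against 4.84% of all windows and 2.19% of windows of genes that passed). The T-box half-site AGGTGT occurred in those of Pax9 and Twist1 (2 of 22, against 11.8% and 9.1%), and the basic helix-loop-helix box CANNTG in 12 of 22 (54.5%, against 66.2% and 55.8%). TGACAG and TATAAA were also searched and occurred in 6 and 5 of the 22 windows, against 15.9% and 12.4% of all windows and 13.4% and 5.97% of windows of genes that passed. A letter match is a description and not a site.

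In knockout against wild-type cells, 13 of the 22 measured genes rose and 5 fell, by limma on log2(RPKM + 1) with Benjamini-Hochberg adjustment over all 10897 genes tested. Of all genes tested, 67.2% were called, 40.6% higher and 26.6% lower, so a call by itself was common. The median log2 difference was 0.42 over the 22 and 0.06 over all genes tested. Of the 18 genes that passed without depending on any 1 genotype, 11 rose and 4 fell. After quantile normalization 13 were called higher and 7 lower, because En1 (-0.14, adjusted p = 0.0156) and Barx1 (-0.41, adjusted p = 0.00946) were then also called lower. Of all calls, 60.4% were higher in the fit as described, 46.7% after quantile normalization and 47.2% after median scaling.

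In heterozygous against wild-type cells, 19 of the 22 rose and 0 fell, while 52.6% of all genes tested were called, 35.5% higher and 17.1% lower. Without the 4 genes that passed through 1 genotype only, of which Barx1 and Alx4 did so through heterozygous cells, 16 of 18 rose and 0 fell. The count of rises was 12 after quantile normalization, 12 after median scaling and 12 without the first heterozygous library, with 0 falls in each of these 3 fits. Of all calls in this comparison, 67.5% were higher as described, 51.1% after quantile normalization and 45.5% after median scaling. The 1 negative difference was that of Meis1 (-0.06 ± 0.07, adjusted p = 0.485), so 0 of the 22 fell at an unadjusted p under 0.05 as well. Knockout and heterozygous cells were both compared with the same wild-type libraries, so these counts are not independent of each other. Between knockout and heterozygous cells directly, 8 genes were higher in knockout and 8 lower, while 51.8% of all genes tested were called, 26.4% higher and 25.4% lower. Meox2 and Osr2, which passed only through knockout, were among the higher, and Alx4 and Barx1 among the lower, as the filter favours. Without these 4 genes, 6 of 18 were higher and 6 lower.

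**Figure D2:**
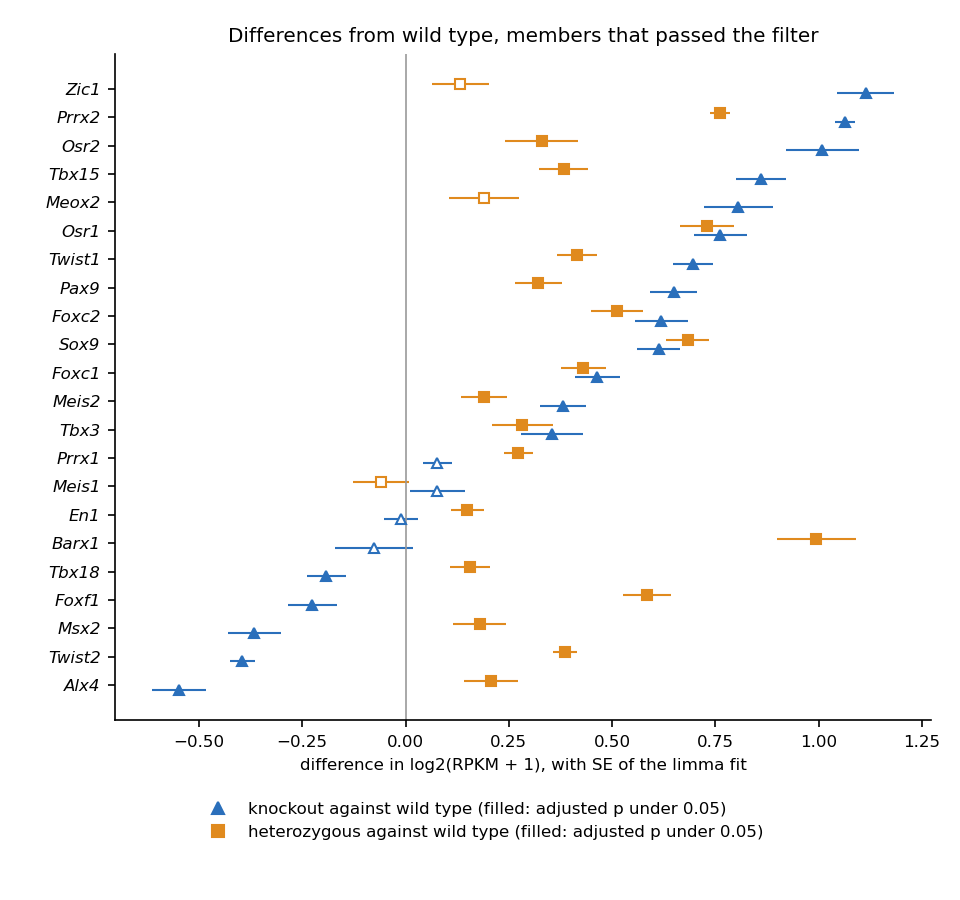
Difference from wild type in log2(RPKM + 1) for the 22 measured genes, with the SE of the limma fit, for knockout (triangles) and heterozygous cells (squares); filled symbols passed an adjusted p of 0.05. Zic1, Prrx2 and Osr2 lie farthest right in knockout, and the 5 genes that fell in knockout (Tbx18, Foxf1, Msx2, Twist2 and Alx4) lie right of 0 in heterozygous cells. Osr2 passed the filter only through knockout and Alx4 only through heterozygous cells, which favours a rise there. The heterozygous rises of Alx4, Msx2 and Tbx18 were lost in 9, 11 and 7 alternative fits.

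Among the mesenchymal regulators, Prrx2, a homeodomain protein of limb and craniofacial mesenchyme, stood at 39.1 and 39.6 RPKM in wild type, 68.3 and 66.5 in heterozygous and 82.4 and 84.3 in knockout libraries. The 3 genotypes did not overlap. The knockout mean was 2.12 times that of wild type, a log2 difference of 1.06 ± 0.03 (SE, adjusted p = 1.31e-07), and the heterozygous difference was 0.76 ± 0.03. Its paralogue Prrx1 stood at 14.8 and 15.5, 18.7 and 18.4, and 15.9 and 16.2 RPKM in the same order. Prrx1 was higher in heterozygous cells (0.27 ± 0.04) and did not pass the test in knockout (0.08 ± 0.04, adjusted p = 0.0887; -0.003 after median scaling). The level of Prrx2 over that of Prrx1 went from 2.64 and 2.56 in wild type to 5.17 and 5.22 in knockout libraries.

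Twist1 and Twist2, helix-loop-helix proteins of mesoderm and dermis, moved apart in knockout. Twist1 stood at 11.8 and 12.9 RPKM in wild type, 16.3 and 17.2 in heterozygous and 20.2 and 20.9 in knockout libraries. Twist2 stood at 18.9 and 19.0, then 25.1 and 25.1, then 14.1 and 14.3 RPKM. Both were higher in heterozygous than in wild-type cells (0.42 ± 0.05 and 0.39 ± 0.03), whereas in knockout Twist1 rose (0.70 ± 0.05, adjusted p = 1.56e-05) and Twist2 fell (-0.39 ± 0.03, adjusted p = 2.28e-05). The Twist2 level was 1.60 and 1.48 times that of Twist1 in wild type and 0.696 and 0.684 times in knockout libraries, so that the order of the pair was reversed.

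Msx2, a homeodomain target of BMP signals in limb and skin, stood at 4.09 and 3.64 RPKM in wild type, 4.43 and 4.58 in heterozygous and 2.93 and 2.62 in knockout libraries. It fell in knockout (-0.37 ± 0.06, adjusted p = 0.00169), and its small heterozygous rise (0.18 ± 0.06, adjusted p = 0.0488) failed the test in 11 alternative fits. Alx4, a homeodomain protein of the anterior limb bud and skull, stood at 0.901 and 0.945, 1.33 and 1.11, and 0.318 and 0.313 RPKM. Its knockout mean was 0.342 of the wild-type mean (-0.55 ± 0.07, adjusted p = 0.000234), and the knockout libraries lay below all others, although Alx4 passed the filter only through heterozygous cells. Msx1 did not reach the filter and had 0.622 and 0.762 RPKM in wild-type libraries, 0.429 and 0.28 in heterozygous and 0.382 and 0.376 in knockout. Dlx3 and Dlx5, of skin appendages and bone, stayed at or below 0.259 RPKM.

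Among the somite and axial regulators, all 5 that could be tested rose in knockout, where 40.6% of all genes tested were called higher. Of the 5, Meox2 passed the filter only through knockout. Zic1, a zinc finger protein of dorsal neural tube and somites, stood at 1.89 and 1.80 RPKM in wild type, 1.98 and 2.27 in heterozygous and 5.47 and 4.86 in knockout libraries. The knockout libraries stood apart from the 4 others (1.11 ± 0.07 against wild type, adjusted p = 8.97e-06), while the heterozygous difference did not pass (0.13 ± 0.07, adjusted p = 0.143). Zic2 was far lower, at 0.0563 and 0.0241, 0.16 and 0.141, and 0.282 and 0.21 RPKM. Zic4, the neighbour of Zic1, stood at 0.0578 and 0.0786 RPKM in wild type, 0.182 and 0.157 in heterozygous and 0.299 and 0.309 in knockout libraries.

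Pax9, a paired-box protein of the sclerotome that forms vertebrae, stood at 0.90 and 1.02 RPKM in wild type, 1.42 and 1.48 in heterozygous and 2.01 and 2.13 in knockout libraries. The genotypes were ordered without overlap, with a log2 difference of 0.65 ± 0.06 in knockout (adjusted p = 4.62e-05) and 0.32 ± 0.06 in heterozygous cells (adjusted p = 0.00288). Its relative Pax1 was under the filter at 0.331 and 0.403, 0.566 and 0.633, and 0.609 and 0.959 RPKM. Pax3, of the dermomyotome and neural crest, overlapped between genotypes in both comparisons with wild type, at 0.166 to 0.293 RPKM.

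Foxc1 and Foxc2, forkhead proteins of somites and vessels, rose together. Foxc2 stood at 2.54 and 2.26 RPKM in wild type, 3.74 and 3.96 in heterozygous and 4.003 and 4.44 in knockout, with log2 differences of 0.51 ± 0.06 and 0.62 ± 0.06. Foxc1 stood at 1.22 and 1.11, 1.89 and 1.93, and 2.05 and 1.92 RPKM (0.43 ± 0.05 and 0.46 ± 0.05). Neither difference between knockout and heterozygous cells passed the test (0.11 ± 0.06 for Foxc2, 0.03 ± 0.05 for Foxc1). The ratio of Foxc2 to Foxc1 stayed between 1.95 and 2.32 in all 6 libraries.

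Meox2, a homeodomain protein of somites and limb muscle, stood at 0.482 and 0.287 RPKM in wild type, 0.654 and 0.499 in heterozygous and 1.42 and 1.41 in knockout. The difference in knockout was 0.81 ± 0.08 (adjusted p = 0.000117), but Meox2 passed the filter only through knockout, which favours a rise. Meox1, of the same family, stood at 0.0764 and 0.0324, 0.0136 and 0.029, and 0.584 and 0.581 RPKM. Those levels rest on 7 read equivalents in wild type, 3 in heterozygous and 121 in knockout, a knockout to wild-type ratio of 10.6 with an exact 95% counting interval of 4.97 to 26.8. In a fit without the filter, the difference of Meox1 was 0.59 with an adjusted p of 0.00011. Of 9 skeletal muscle markers, 2 passed the filter. Actc1, a muscle actin, fell in knockout (from 30.8 ± 0.872 to 14.7 ± 0.793 RPKM, SD, n = 2), and Des, the intermediate filament desmin, rose (from 1.14 ± 0.13 to 3.01 ± 0.29); their part in the Meox difference was not tested. Nkx3-2, of the sclerotome, stayed between 0.517 and 0.923 RPKM.

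The dermal T-box genes Tbx15 and Tbx18, close relatives that pattern skin and skeleton, moved apart in knockout. Tbx15 stood at 3.36 and 3.74 RPKM in wild type, 5.01 and 4.84 in heterozygous and 7.59 and 6.92 in knockout libraries. It rose in both comparisons with wild type (0.38 ± 0.06 in heterozygous and 0.86 ± 0.06 in knockout, adjusted p = 1.54e-05). Tbx18 stood at 3.08 and 3.14, 3.53 and 3.63, and 2.51 and 2.69 RPKM. It fell in knockout (-0.19 ± 0.05, adjusted p = 0.0089; adjusted p = 0.0704 without the first knockout library), and its heterozygous rise of 0.16 ± 0.05 was lost in 7 alternative fits.

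**Figure D3:**
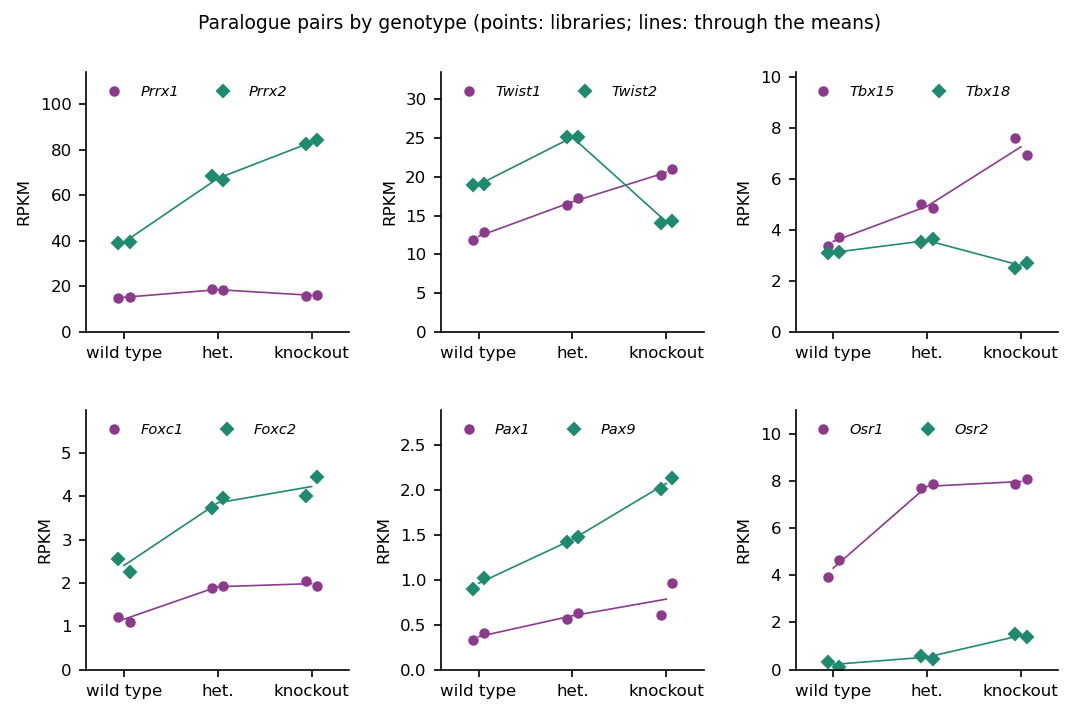
RPKM of 6 paralogue pairs by genotype on linear axes, with a point for each library and lines through the means. Twist2 lies above Twist1 in wild type and below it in knockout, Tbx15 and Tbx18 spread apart, and Foxc1 and Foxc2 keep their proportion.

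In the cartilage, joint and organ mesenchyme group, Sox9, the regulator of cartilage formation, stood at 3.30 and 3.53 RPKM in wild type, 6.15 and 6.01 in heterozygous and 5.50 and 6.00 in knockout. Both genotypes were higher than wild type (0.68 ± 0.05 and 0.61 ± 0.05) and the difference between them did not pass the test (-0.07 ± 0.05, adjusted p = 0.299). Chondrocyte markers were low throughout, with a sum of 0.561 and 0.543 RPKM in wild type, 1.72 and 1.82 in heterozygous and 2.25 and 2.31 in knockout.

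Osr1 and Osr2, zinc finger proteins of joints and intermediate mesoderm, were both higher in knockout. Osr1 stood at 3.94 and 4.67 RPKM in wild type, 7.69 and 7.85 in heterozygous and 7.88 and 8.08 in knockout (0.73 ± 0.06 and 0.76 ± 0.06). Osr2 stood at 0.313 and 0.126, 0.59 and 0.467, and 1.52 and 1.38 RPKM, a difference of 1.01 ± 0.09 in knockout (adjusted p = 4.62e-05). Osr1 did not pass between knockout and heterozygous cells (0.03 ± 0.06, adjusted p = 0.696), while Osr2, which passed the filter only through knockout, did (0.68 ± 0.09, adjusted p = 0.000703).

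Barx1, a homeodomain protein of stomach and joint mesenchyme, stood at 0.392 and 0.209 RPKM in wild type, 1.78 and 1.40 in heterozygous and 0.241 and 0.22 in knockout. The heterozygous mean was 5.3 times that of wild type (0.99 ± 0.10, adjusted p = 0.000168). Barx1 passed the filter only through heterozygous cells, and wild type and knockout overlapped. Foxf1, a forkhead protein of gut and lung mesenchyme, stood at 2.85 and 2.61, 4.45 and 4.74, and 2.30 and 2.09 RPKM. It rose in heterozygous cells (0.58 ± 0.06, adjusted p = 0.000208) and fell in knockout (-0.23 ± 0.06, adjusted p = 0.0109), a call lost without the first wild-type or the second knockout library (highest adjusted p = 0.077). Fendrr, the noncoding RNA transcribed away from Foxf1, stayed at or below 0.168 RPKM, and Six2 stayed between 0.127 and 0.186 RPKM.

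Most limb identity genes were low. Tbx5, of the forelimb, was listed at 0, and Pitx1, of the hindlimb, stayed at or below 0.0146 RPKM. Tbx4, the hindlimb T-box gene next to Tbx2, stood at 0.905 and 0.703 RPKM in wild type, 0.399 and 0.331 in heterozygous and 0.949 and 1.05 in knockout. The heterozygous to wild-type ratio of Tbx4 was 0.446 (exact 95% counting interval 0.294 to 0.667). Tbx3, of limb margins and mammary bud, stood at 3.73 and 4.55, 5.32 and 5.14, and 5.43 and 5.67 RPKM and was higher in both genotypes (0.28 ± 0.07 in heterozygous, 0.35 ± 0.07 in knockout), the heterozygous call being lost in 4 alternative fits (highest adjusted p = 0.0978). Its relative Tbx2 was at 0.0284 and 0.0201, 0.067 and 0.054, and 0.15 and 0.151 RPKM.

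Shox2, which drives growth of the proximal limb, stood at 0.567 and 0.619 RPKM in wild type, 0.936 and 1.08 in heterozygous and 0.324 and 0.276 in knockout. Heterozygous libraries lay above all others and knockout libraries below all others. Meis2, a TALE homeodomain protein of the proximal limb, was at 0.944 and 1.08, 1.31 and 1.28, and 1.61 and 1.63 RPKM and rose in knockout (0.38 ± 0.06, adjusted p = 0.000674). Meis1 did not pass in any of these comparisons: 1.65 and 1.87, 1.56 and 1.74, and 2.00 and 1.82 RPKM, with a knockout difference of 0.08 ± 0.07 that was -0.16 after quantile normalization. Lhx9 stayed at or below 0.0932 RPKM.

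Of the dorsoventral pair, En1, which marks ventral ectoderm and part of the dermal lineage, stood at 5.02 and 4.95 RPKM in wild type, 5.67 and 5.60 in heterozygous and 4.85 and 5.02 in knockout. It did not pass in knockout (-0.01 ± 0.04, adjusted p = 0.821), and its heterozygous rise of 0.15 ± 0.04 was lost in 5 alternative fits. Lmx1b, the dorsal counterpart in the limb, stayed at or below 0.035 RPKM, between 0 and 2 read equivalents per library.

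Of the 15 genes above 0 but under the filter, 8 had both knockout values above both wild-type values and 2 had them below, against 35.8% and 12% of the 7991 genes under the filter. For heterozygous values the counts were 7 above and 4 below wild type, against 24.7% and 13.3%. The 8 were Tbx4, Tbx2, Dlx3, Dlx5, Pax1, Meox1, Nkx3-2 and Zic2, and the 2 lower were Shox2 and Msx1. The counting intervals of the ratio excluded 1 for Tbx2 (6.23, from 2.5 to 20), Zic2 (6.93, from 2.18 to 35.2), Dlx5 (3.91, from 1.51 to 12.9), Pax1 (2.12, from 1.57 to 2.9), Meox1, Shox2 (0.509, from 0.335 to 0.771) and Msx1 (0.548, from 0.39 to 0.768). Intervals for Tbx4, Dlx3 and Nkx3-2 included 1. These intervals were computed from rounded read equivalents and cover counting error only.

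Whether heterozygous cells lay between the homozygous genotypes was tested against the midpoint of wild type and knockout on the log2 scale. Of the 22 genes, 13 lay above the midpoint and 1 below, against 22.4% and 14.5% of all genes tested. Barx1 and Alx4, among the 13, passed the filter only through heterozygous cells, which favours a place above the midpoint. Among the 18 genes that did not depend on 1 genotype, 11 lay above and 1 below. Of these 18, the farthest above were Foxf1 (0.70 ± 0.05, adjusted p = 8.09e-05) and Twist2 (0.58 ± 0.03, adjusted p = 7.57e-06). The values of Barx1 (1.03 ± 0.08) and Alx4 (0.48 ± 0.06) are given as a description. Zic1 was the 1 gene below (-0.42 ± 0.06, adjusted p = 0.00165), its heterozygous level being close to that of wild type. The other 8 did not pass. Of these, Twist1, Pax9, Meis2 and Tbx15 had differences from the midpoint between -0.05 ± 0.05 and 0.07 ± 0.04. Farther from it were Meox2 (-0.21 ± 0.07, adjusted p = 0.056), Osr2 (-0.18 ± 0.08), Tbx3 (0.11 ± 0.06) and Meis1 (-0.10 ± 0.06). Meox2 and Osr2 passed the filter only through knockout, which favours a place below the midpoint. In 9 of the 22 genes both heterozygous libraries lay above all 4 others, against 18.1% of all genes tested, and in 0 below, against 8.8%. Without the genes that passed through 1 genotype only, the counts were 7 and 0 of 18. As given above, the heterozygous libraries differ from the others in Xist and Y-linked genes, whose part in this pattern was not tested.

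**Figure D4:**
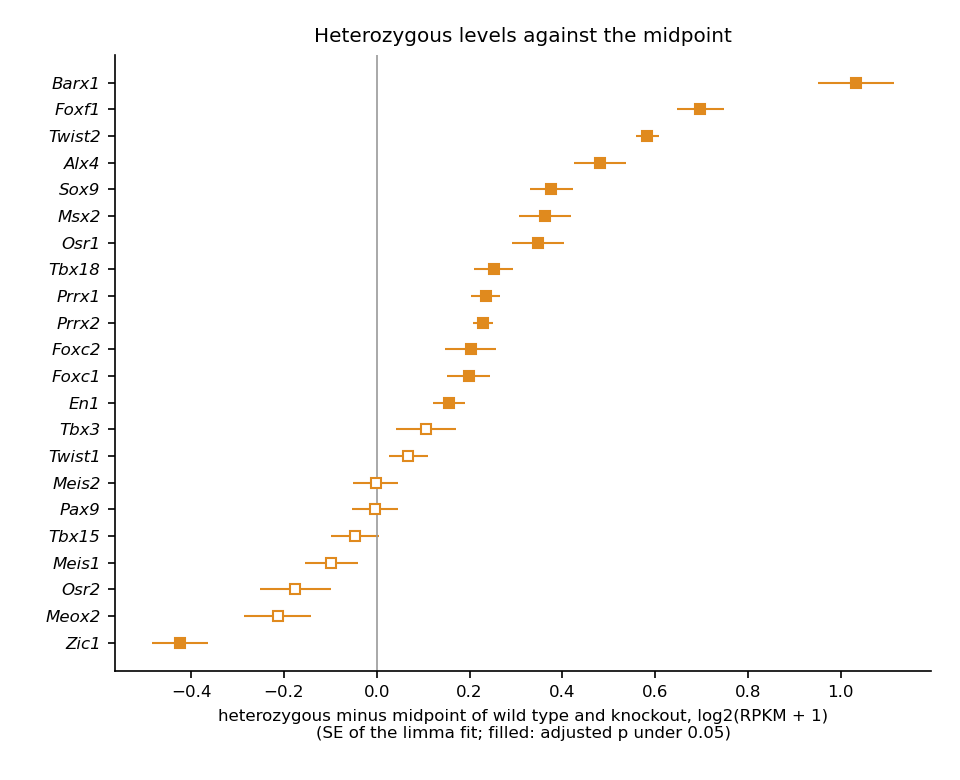
Heterozygous mean minus the midpoint of wild type and knockout in log2(RPKM + 1), with the SE of the limma fit; filled squares passed an adjusted p of 0.05. Barx1, Foxf1, Twist2 and Alx4 lie farthest above 0 and Zic1 below it; Barx1 and Alx4 passed the filter only through heterozygous cells.

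Partners and signals of these factors came from 5 lists, of 121 matched genes outside the 40, of which 51 passed the filter. In knockout 37 of the 51 rose and 7 fell, against 40.6% and 26.6% of all genes tested, and in heterozygous cells 34 rose and 4 fell, against 35.5% and 17.1%. Of the 51, 6 passed the filter only through knockout, and all 6 are among the 37. Without them, 31 of 45 rose and 7 fell in knockout (median 0.36), and 30 rose and 4 fell in heterozygous cells (median 0.21). Of 20 such cofactors and dimer partners, 12 rose and 2 fell in knockout. The E protein gene Tcf4, a dimer partner of Twist proteins, went from 4.97 ± 0.0878 RPKM in wild type to 8.85 ± 0.198 in heterozygous and 9.11 ± 0.144 in knockout (SD, n = 2). Id2, an inhibitor of E proteins, went from 2.67 ± 0.239 to 7.38 ± 0.133 and 7.14 ± 0.27, and Tcf12, another E protein gene, from 8.63 ± 0.196 to 9.75 ± 0.032 and 12.5 ± 0.342. Eya4, from a family of transcriptional coactivators, went from 0.133 ± 0.00635 to 1.01 ± 0.0166 RPKM in knockout and passed the filter only through knockout.

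Of 8 paralogues outside the 40, counted in the same way, 6 rose and 2 fell in knockout. There 40.6% of all genes tested rose and 26.6% fell, which also stands beside the next counts. Snai1, a zinc finger repressor of mesenchymal cells, went from 34.3 ± 0.596 RPKM in wild type to 37.8 ± 1.97 in heterozygous and 59.7 ± 0.0857 in knockout cells (SD, n = 2). Of 9 hedgehog, FGF, BMP and Wnt genes, 7 rose and 2 fell. Among the 7, Bmp4 stood at 0.268 and 0.231 RPKM in wild type. It passed the filter through heterozygous and knockout libraries only, which favours a rise. Fgf7 rose from 5.08 ± 0.00158 to 17.1 ± 0.0201 RPKM and Fgf10, a limb bud growth factor, from 1.17 ± 0.00216 to 2.88 ± 0.0709, whereas Wnt5a fell from 19.3 ± 0.147 to 11.2 ± 0.075 and Fgfr1 from 38.4 ± 0.244 to 28.1 ± 0.163. Of 7 target and differentiation genes, 6 rose and 1 fell. They included Pdgfra, a receptor of mesenchymal cells (from 2.51 ± 0.035 to 6.38 ± 0.0572 RPKM), and the tendon genes Scx (from 2.56 ± 0.0685 to 6.44 ± 0.346) and Tnmd (from 1.92 ± 0.263 to 8.94 ± 0.647).

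Markers of other cell types moved with genotype as well. The sum of 12 macrophage and leukocyte markers, 7 of which passed the filter, was between 7.61 and 10.3 RPKM in wild-type and heterozygous libraries and 55.4 and 55.8 in knockout. Tendon markers summed to 10.5 and 11.6 RPKM in wild type, 26.6 and 26.9 in heterozygous and 101 and 97.7 in knockout. Smooth muscle and pericyte markers summed to 3475 and 3481 RPKM in wild type and between 1966 and 2159 in the other libraries. Schwann and neural crest markers stood at 28.2 and 28.1, 35.9 and 34.7, and 16.3 and 17.0 RPKM. In such bulk libraries a change in the share of a cell type and a change of RNA per cell cannot be told apart, and the part of these shifts in the differences above was not tested.

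Chromosomal neighbours were compared as a description. Of 75 protein-coding neighbours of the 40 genes that are not among them, 42 passed the filter. In knockout 18 of these rose and 8 fell, with a median log2 difference of 0.07, and in heterozygous cells 16 rose and 3 fell (median 0.11). These shares (42.9% and 19% in knockout) stand beside 40.6% and 26.6% of all genes tested. In heterozygous cells the shares were 38.1% and 7.14%, beside 35.5% and 17.1% of all genes tested. Between knockout and heterozygous cells, 7 neighbours were higher in knockout and 15 lower (median -0.03). Those shares were 16.7% and 35.7%, beside 26.4% and 25.4% of all genes tested. Within the set, Tbx2 and Tbx4 are neighbours and so are Tbx3 and Tbx5, while Foxf1 and Foxc2 have Mthfsd as a common neighbour. Foxc2 rose and Foxf1 fell in knockout, and Tbx2 was far below Tbx4 in every library.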

How the data were processed

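RNA was sequenced from 6 libraries, 2 of each genotype. The series also holds 6 ChIP libraries, not analysed here. Values are RPKM as deposited by the authors, and TopHat and the mouse build mm9 are named in the submitters' processing notes; for the counting program and annotation, these sources give no name. Each value holds aligned bases over exons, so a read can count in part: 9.34% of nonzero values came out whole (tolerance 0.01 reads), and no count test was run. Library totals were recovered from the spacing of low values, taking a read as 74 bases. Some recovered transcript lengths may be too short, so read equivalents of single genes are lower bounds.

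Genes with at least 1 RPKM in at least 2 libraries (10897) were tested on log2(RPKM + 1) with limma 3.58.1 in R 4.3.3, with all 3 genotypes in 1 fit, an intensity trend and 3 residual degrees of freedom. Fold changes on this scale understate changes of low genes. P-values were adjusted by Benjamini-Hochberg over all genes tested, with 0.05 as the threshold. An exact permutation test of 2 against 2 libraries cannot go below p = 0.333 and was not used. Ratios of genes under the filter have exact conditional 95% counting intervals.

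All 40 genes may be named. Values of every library were given for genes called in knockout with a log2 difference of at least 0.3, for those called elsewhere with at least 0.5, for the 5 highest and for paralogue pairs; other lists give up to 4 genes with the smallest p. Zic4, Fendrr, Lum, Thy1, Actc1, Des and Bmp4, and some genes below these sizes, were named after their values were seen. A gene of the paralogue list is not reported here by name. The members and lists were chosen with earlier results of these data known. Alternatives were other pseudocounts, filters and scalings, no trend, fits of 2 groups, a replicate block and leaving out each library.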

Additional observations from a re-analysis of the deposited data

How the results depend on the processing

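Of the calls of single genes, 16 of 18 in knockout against wild type, 12 of 19 in heterozygous against wild type, 14 of 16 in knockout against heterozygous and 11 of 14 against the midpoint were kept in every alternative in which the gene was tested, and no called difference changed sign. The 7 heterozygous rises lost in some fits (En1, Meis2, Alx4, Tbx3, Tbx18, Msx2 and Osr2) were all lost under quantile normalization and median scaling. The cause was not tested.

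With a filter at 5 RPKM, which leaves 9 of the genes, 6 rose and 1 fell in knockout, 9 rose in heterozygous cells, 3 were higher and 3 lower in knockout than in heterozygous cells, and 6 lay above the midpoint and 0 below. Tbx3, Tbx15, Sox9 and Osr1 were under 5 RPKM in both wild-type libraries and passed through the other genotypes, which favours a rise. Of all 6788 genes at this filter, 4754 were called in knockout and 3841 in heterozygous against wild-type cells. Of these calls, 48.2% were higher in knockout and 59.4% in heterozygous cells. Between knockout and heterozygous cells 3933 were called, 41% of them higher in knockout. Against the midpoint 3091 were called, 61.9% of them above. Without a filter, 19 rose and 7 fell in knockout and 2 fell in heterozygous cells. Among heterozygous rises, those of Shox2, Nkx3-2, Tbx2 and Zic2 were then called, and those of Tbx3, Tbx18 and Msx2 were lost. Of all 18888 genes in this fit, 8354 were called in knockout, 64.8% of them higher. In heterozygous cells 5587 were called, 67.6% of them higher. Quantile normalization and median scaling each left 12 heterozygous rises. Below the midpoint lay 3 genes with a pseudocount of 5, 3 without a filter, 2 with quantile normalization and 2 with median scaling.

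The median difference in knockout, 0.42, was 0.68 with a pseudocount of 0.1, 0.19 with 5, 0.17 without a filter, 0.61 with a filter at 5 RPKM, 0.23 with quantile normalization and 0.34 with median scaling. That in heterozygous cells, 0.33, was 0.45, 0.17, 0.19, 0.39, 0.23 and 0.25 in the same order, and that from the midpoint, 0.20, was 0.24, 0.10, 0.0683, 0.23, 0.17 and 0.17. That of knockout against heterozygous cells, 0.05, was 0.0334 with a pseudocount of 5, 0.0342 without a filter, 0.0332 with a filter at 5 RPKM and 0.0301 with quantile normalization. A smaller or larger pseudocount stretches or shrinks differences of low genes by construction.

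Leaving out each library in turn gave 13 to 13 rises and 4 to 5 falls in knockout (median 0.41 to 0.45), and 12 to 17 rises and 0 falls in heterozygous cells (median 0.31 to 0.38; 12 without the first heterozygous library). Between knockout and heterozygous cells it gave 7 to 8 higher and 7 to 8 lower (median 0.0456 to 0.0703). Against the midpoint it gave 10 to 13 above and 1 to 3 below (median 0.18 to 0.22; 3 below without the second wild-type library). A genotype left with 1 library is assumed to vary like the others.

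No pairing by replicate number was seen: deviations of same-numbered libraries from their group means correlated at -0.09, -0.06 and 0.06 over 10897 genes. These values cannot show whether same-numbered libraries were handled together. With the replicate number as a block, 13 genes rose and 5 fell in knockout, 19 rose in heterozygous cells, and 2 instead of 1 lay below the midpoint.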
